A study of Caenorhabditis elegans with 2 samples.

Results

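The genes described here build and hold together the meiotic chromosome axis in Caenorhabditis elegans. They are the 4 HORMA-domain axis genes htp-3, htp-1, htp-2 and him-3, the 3 meiotic kleisin genes rec-8, coh-3 and coh-4, and lab-1. These 8 genes were chosen by name and biotype, with earlier results of these data known. They are 8 of 19973 protein-coding genes on the nuclear chromosomes in the Ensembl annotation of WBcel235 (ce11). What was measured is where LSL-1, a zinc finger transcription factor, was recovered on chromatin around them. The worms were of strain OP720, which has the unc-119(tm4063) allele and carries the transgene wgIs720, made of lsl-1::TY1::EGFP::3xFLAG together with unc-119(+). They were pooled young adults of mixed sex, grown for 69 h after synchronisation as starved L1 larvae, and they were taken whole. Chromatin was sonicated to 200 to 800 bp and precipitated with an antibody against GFP in 2 biological replicates. There was 1 group, so every worm measured carried the tagged protein, and the regions of germ cells and of other tissues cannot be told apart in whole animals. The control library is not analysed here, and no expression was measured.

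In meiosis each chromosome is organised as a row of loops along a protein axis. Cohesin, a ring of SMC proteins closed by a kleisin subunit, holds sister chromatids together and forms the base of that axis. In the worm germ line, REC-8 and the closely related pair COH-3 and COH-4 are the kleisins used in meiosis. HORMA-domain proteins are then loaded on the axis. HTP-3 recruits HIM-3, HTP-1 and HTP-2, which act in homolog pairing, in synapsis, in crossover formation and in the stepwise release of cohesion. LAB-1 acts on the long arms of paired chromosomes, where it brings in the phosphatase PP1 and protects cohesion until the second division.

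The peaks used were 3897 regions that passed the submitters' test of reproducibility between replicates (irreproducible discovery rate, IDR). A gene was called bound where the summit of such a peak, its base of strongest signal, lay between 1000 bp upstream and 200 bp downstream of the annotated 5' end. Peaks were ranked by the authors' score within each list, with rank 1 the strongest. The score stands on the peak caller's own scale and the read depth is unknown, so ranks and scores were read within a list only. The 3897 IDR peaks are the top of a list of 30000 regions called on both replicates pooled. Replicate 1 alone had 30000 regions and replicate 2 had 26018.

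LSL-1 was found at the promoters of 7 of the 8 genes. All 3 kleisin genes, htp-1, htp-2, htp-3 and lab-1 were bound, and him-3 was not. Over all protein-coding genes 14.2% were bound, which is 2836 genes. The same 7 genes had their peak among the top 3897 regions of each replicate. This state was reached by 12.3% of all protein-coding genes, which is 2448 of the 2836 bound genes. Since IDR peaks are chosen for agreement between these replicates, it is not separate support for the 7. With only the upper 50% of IDR peaks by score, 6 of the 8 remained and htp-3 was lost, beside 9.00% of all genes. The strongest peak of the 7 bound genes had a median rank of 544 (43 to 2664), and that of all 2836 bound genes had a median rank of 1444. The kleisin genes had ranks of 43 to 133, lab-1, htp-2 and htp-1 had ranks of 544 to 823, and htp-3 had 2664. All 7 summits lay between genes.

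**Figure D1:**
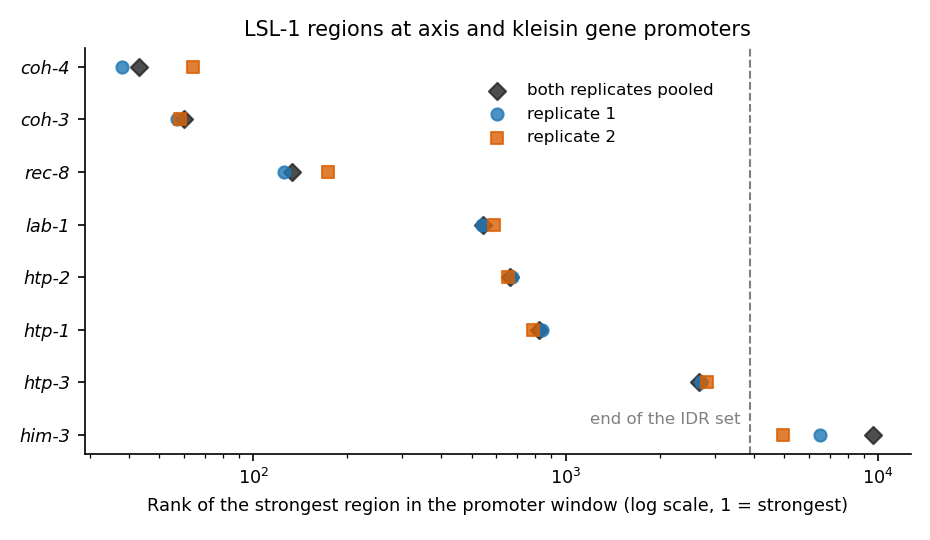
Rank of the strongest region in each promoter window, on a log scale with 1 the strongest, for the 8 genes in the pooled list (diamonds), replicate 1 (circles) and replicate 2 (squares). The dashed line stands at rank 3897, the end of the IDR set in the pooled list. The 3 kleisin genes lie left of all others in each list, and him-3 is right of the line in each.

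The kleisin genes had the strongest peaks among the 8. The coh-4 gene (WBGene00021560, V:4169912-4175640, minus strand) had its peak at V:4175519-4176073, with the summit at -171 bp from the 5' end (minus signs mark positions upstream). That peak had rank 43 with a score of 2460 in the pooled list, rank 38 with 1899 in replicate 1 and rank 64 with 568.3 in replicate 2. For coh-3 (WBGene00000592, V:14457422-14460141, plus strand) the peak at V:14457019-14457553 had its summit at -146 bp. It had rank 60 with a score of 2279 in the pooled list, rank 57 with 1700 in replicate 1 and rank 58 with 575.4 in replicate 2. The replicates thus gave the 2 genes in opposite order, coh-4 ahead in replicate 1 and coh-3 ahead in replicate 2, and their order is within the spread between replicates. The rec-8 gene (WBGene00004333, IV:13349122-13353193, minus strand) had its summit at -224 bp in a peak at IV:13353208-13353685. Its rank was 133 with a score of 1758 in the pooled list, 125 with 1357 in replicate 1 and 173 with 405.1 in replicate 2, behind coh-3 and coh-4 each time. Ordered by the rank of the strongest peak, coh-4 was at place 50, coh-3 at 72 and rec-8 at 153 of the 2836 bound genes.

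The sequence under these summits is shown because it is where the strongest signal of the 8 genes lies and because the 3 windows share short words. Each is 101 bases centred on the summit, read 5' to 3' in the direction of the gene from the RefSeq assembly of WBcel235. Capitals mark TACGGTA and TGCGCC, the reverse complement of GGCGCA. Both words were picked after values and sequences of these data were seen, TACGGTA from these very windows.
rec-8 (chrIV:13353367-13353467, minus strand): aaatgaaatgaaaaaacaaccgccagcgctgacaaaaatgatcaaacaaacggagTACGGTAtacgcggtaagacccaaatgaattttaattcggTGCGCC
coh-3 (chrV:14457226-14457326, plus strand): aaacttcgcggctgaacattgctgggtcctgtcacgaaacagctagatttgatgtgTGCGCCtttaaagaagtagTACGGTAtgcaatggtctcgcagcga
coh-4 (chrV:4175761-4175861, minus strand): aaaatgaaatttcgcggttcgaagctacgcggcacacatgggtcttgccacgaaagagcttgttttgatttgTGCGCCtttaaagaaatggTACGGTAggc
TACGGTA began 5 bases past the summit in rec-8, 25 past it in coh-3 and 41 past it in coh-4. In coh-3 and coh-4 TGCGCC came before it, from 6 and from 22 bases past the summit, whereas in rec-8 it came after it, from 45 bases past the summit. The longest run of identical bases between the coh-3 and coh-4 windows was 17 bases and held TGCGCC. The G and C content was 41.6% for rec-8, 48.5% for coh-3 and 46.5% for coh-4, beside a median of 41.6% over all IDR summits.

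The coh-3 and coh-4 genes are near copies in their coding sequence. Of 1812 aligned coding bases 1635 were identical (90.2%), against 57.3% between rec-8 and coh-3. Short reads from identical stretches can be placed at either copy, so the words that occur more than once in the genome were counted in each peak. Of the 36-base words, 4 of 500 (0.800%) in the coh-3 peak and 4 of 520 (0.769%) in the coh-4 peak were repeated. None was repeated in the peaks of the other 5 bound genes, nor in the strongest pooled region of him-3. The longest run shared by the coh-3 and coh-4 peaks was 39 bases. The peaks therefore lie almost wholly in sequence that 36 bases place at 1 site. How reads with several placements were treated is not stated in the labels or notes.

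The second pair of near copies, htp-1 and htp-2, was also bound at both genes. HTP-1 and HTP-2 are HORMA-domain proteins that share much of their work in meiosis, with HTP-1 the one needed for proper pairing and synapsis. The htp-2 gene (WBGene00002033, IV:6419522-6420898, plus strand) had its summit at -180 bp in a peak at IV:6419100-6419535. Its rank was 662 with a score of 715 in the pooled list, 671 with 526.4 in replicate 1 and 651 with 184.1 in replicate 2. The htp-1 gene (WBGene00002032, IV:5390189-5391557, minus strand) had its summit at -321 bp, the farthest upstream of the 7, in a peak at IV:5391666-5392122. Here the rank was 823 with a score of 589.2 in the pooled list, 840 with 428.9 in replicate 1 and 788 with 162 in replicate 2. In each of the 3 lists htp-2 ranked ahead of htp-1, and in each list both were weaker than the kleisin genes. A further summit in the same htp-1 interval, at -548 bp in an intron of ZK616.5, had rank 5239 in the pooled list and so missed the IDR set. In the replicates its counterparts, at -521 and -530 bp, had ranks of 2388 and 2278.

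The windows at the htp-1 and htp-2 summits are shown because they hold the longest stretch shared between any 2 of the bound genes' summit windows, 34 identical bases, set in capitals. They are again 101 bases, read in the direction of the gene from RefSeq, WBcel235.
htp-1 (chrIV:5391828-5391928, minus strand): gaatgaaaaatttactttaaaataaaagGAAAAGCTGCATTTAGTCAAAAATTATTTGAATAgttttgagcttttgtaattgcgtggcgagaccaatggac
htp-2 (chrIV:6419292-6419392, plus strand): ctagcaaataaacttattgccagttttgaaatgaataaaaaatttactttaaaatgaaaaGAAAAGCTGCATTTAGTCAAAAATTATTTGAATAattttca
The shared run began 22 bases before the htp-1 summit and 10 bases after the htp-2 summit. No other pair but coh-3 and coh-4 shared more than 10 bases in these windows, on either strand. Of 1056 aligned coding bases 954 were identical between htp-1 and htp-2 (90.3%), against 62.1% between htp-3 and htp-1. A run of 95 identical bases, from -697 to -603 bp of htp-1 and from -526 to -432 bp of htp-2, lay upstream of both IDR peaks. The weaker replicate 2 region with its summit at -530 bp of htp-1 (IV:5391872-5392301) spans this run. Repeated words were not counted in that region. Neither the htp-1 nor the htp-2 IDR peak held a repeated 36-base word. Both windows were poor in G and C, with 29.7% for htp-1 and 20.8% for htp-2.

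The him-3 gene was the exception. Among the HORMA-domain proteins that HTP-3 recruits to the axis is HIM-3, which promotes crossing over between homologs rather than sisters. The gene (WBGene00001862, IV:6977508-6978765, plus strand) had no IDR summit in its promoter window, and the nearest one, of rank 2286, lay at -3106 bp. The pooled list held 3 weaker regions in the window, with summits at -880, -564 and -254 bp and ranks of 9663, 10858 and 12717. All 3 summits fell in coding exons of pgl-1, the neighbouring gene that encodes a P granule protein. Replicate 1 had regions at -569 bp with rank 6529 and at -257 bp with rank 16812. Replicate 2 had them at -936 bp with rank 4968 and at -238 bp with rank 9006. None was among the top 3897 of any list, and only the region near -254 bp appeared in both replicates. A pooled region of any rank was found in the window of all 8 genes and of 36.7% of all protein-coding genes.

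For comparison with the sequences under the bound summits, the 189 bases between the 5' ends of him-3 and pgl-1 are given whole, in the direction of him-3 (RefSeq, WBcel235). None of the 7 words searched lies in them, so there are no capitals.
him-3 (chrIV:6977319-6977507, plus strand): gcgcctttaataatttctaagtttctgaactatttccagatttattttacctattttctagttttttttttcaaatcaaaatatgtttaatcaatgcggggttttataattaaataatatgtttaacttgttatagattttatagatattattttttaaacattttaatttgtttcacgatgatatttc
Their G and C content was 20.6%. No summit of any list fell between these 5' ends. GGCGCA occurred once in the promoter window of him-3, on the other strand from -190 to -185 bp, across the 5' end of pgl-1. TACGGTA did not occur in that window.

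HTP-3 is needed to load the other HORMA-domain proteins and LAB-1 guards cohesion, and the 2 genes had peaks of different strength. The lab-1 gene (WBGene00007278, I:9657012-9658023, minus strand) had its summit at -69 bp in a peak at I:9657921-9658263. It had rank 544 with a score of 818.9 in the pooled list, 540 with 617.9 in replicate 1 and 589 with 198.6 in replicate 2. Of the 7 genes, lab-1 had the summit closest to its own 5' end and, with 343 bp, the narrowest peak. The htp-3 gene (WBGene00002034, I:4827072-4829791, plus strand) had its summit at -93 bp in a peak at I:4826761-4827196. That peak had rank 2664 with a score of 174.5 in the pooled list, 2712 with 128.5 in replicate 1 and 2841 with 44.15 in replicate 2. It was the weakest of the 7 in every list, and htp-3 was at place 2247 of the 2836 bound genes. A second region at +106 bp, in an intron of htp-3, had ranks of 9055 in the pooled list, 20334 in replicate 1 and 3267 in replicate 2, and only in replicate 2 was it among the top 3897 regions of its list. The summit windows of htp-3 and lab-1 had 28.7% and 33.7% G and C and each held TACGGTA once, from 23 to 17 bases before the summit.

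**Figure D2:**
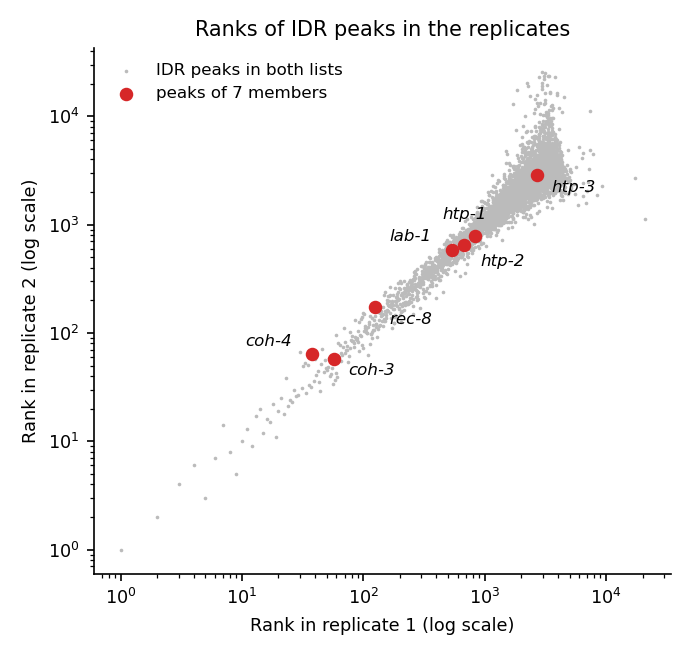
Rank in replicate 1 (x axis) and in replicate 2 (y axis), both on log scales, for each IDR peak with a partner in both lists (grey) and for the strongest peak of the 7 bound genes (red, named). The 7 points lie along the band of all peaks, from ranks 38 and 64 for coh-4 to 2712 and 2841 for htp-3.

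The replicates placed the summits of the 7 genes close together. Each peak was matched to the nearest summit within 100 bp in each replicate list. The 2 replicate summits were a median of 1 bp apart (0 to 11) for the 7 genes. Over the 3708 IDR peaks with a partner in both lists the median was 16 bp. Those peaks are of all ranks, whereas the 7 had a median rank of 544, and peaks of like rank were not compared. The replicate summits coincided for htp-2 and htp-3 and were 1 bp apart for coh-3 and rec-8. They were 3 bp apart for coh-4, 7 bp for lab-1 and 11 bp for htp-1. Peaks of the 7 genes were a median of 457 bp wide (343 to 555), and the strongest peaks of all bound genes a median of 414.5 bp. Their summits lay at a median of -171 bp (-321 to -69), and those of all bound genes at a median of -250 bp. Many worm transcripts have a leader spliced to them in trans, and for these the annotation's 5' end is the splice site and not the start of transcription.

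Each of the 8 genes stands head to head with another protein-coding gene, an arrangement that was looked for after the peaks had been seen. A head-to-head neighbour here has its 5' end upstream, on the opposite strand and within 1000 bp. This held for 17.7% of all protein-coding genes. The partners were bmk-1 for coh-3, which encodes a kinesin-5 motor, pid-5 for coh-4, a gene of the piRNA pathway, and mex-5 for rec-8, which encodes an RNA-binding protein of embryonic polarity. They were ZK616.5 for htp-1, Y73B6BL.23 for htp-2, tofu-4 for htp-3, which acts in piRNA production, asfl-1 for lab-1, which encodes a histone chaperone, and pgl-1 for him-3. The 5' ends of these pairs were 190 bp (him-3) to 530 bp (rec-8) apart, with a median of 402.5 bp, beside a median of 477 bp over all 3539 head-to-head genes. With a limit of 500 bp, 7 of the 8 genes were still head to head, beside 9.25% of all genes.

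All 7 summits lay between the pair of 5' ends and were in the promoter windows of both genes. The summit was nearer to the partner at coh-4 (at -71 bp of pid-5) and at htp-1 (at -51 bp of ZK616.5). It was nearer to the named gene at rec-8 (at -306 bp of mex-5), coh-3 (at -292 bp of bmk-1), htp-2 (at -261 bp of Y73B6BL.23), htp-3 (at -340 bp of tofu-4) and lab-1 (at -182 bp of asfl-1). The position of a shared peak does not tell which of the 2 genes it concerns. Given to the closest gene alone, 5 of the 8 genes were bound, beside 10.2% of all protein-coding genes. Under this rule htp-1 and coh-4 joined him-3 among the unbound. Over all 2836 bound genes, in any arrangement, 54.5% shared their strongest peak with another protein-coding promoter. An IDR summit between the 5' ends of a head-to-head pair was found for 41.5% of them, which is 1177 genes. Only head-to-head genes can have such a summit, and 1311 of these were bound. For 1280 of the 1311 the partner was bound too. A shared summit between the 5' ends is thus usual for bound head-to-head genes and not particular to the 7. Among head-to-head genes in general 37.0% were bound, and 9.28% of genes in other arrangements were. The 7 of 8 are thus to be read beside 37.0% as well as beside 14.2%. Neither him-3 nor its partner pgl-1 was bound.

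**Figure D3:**
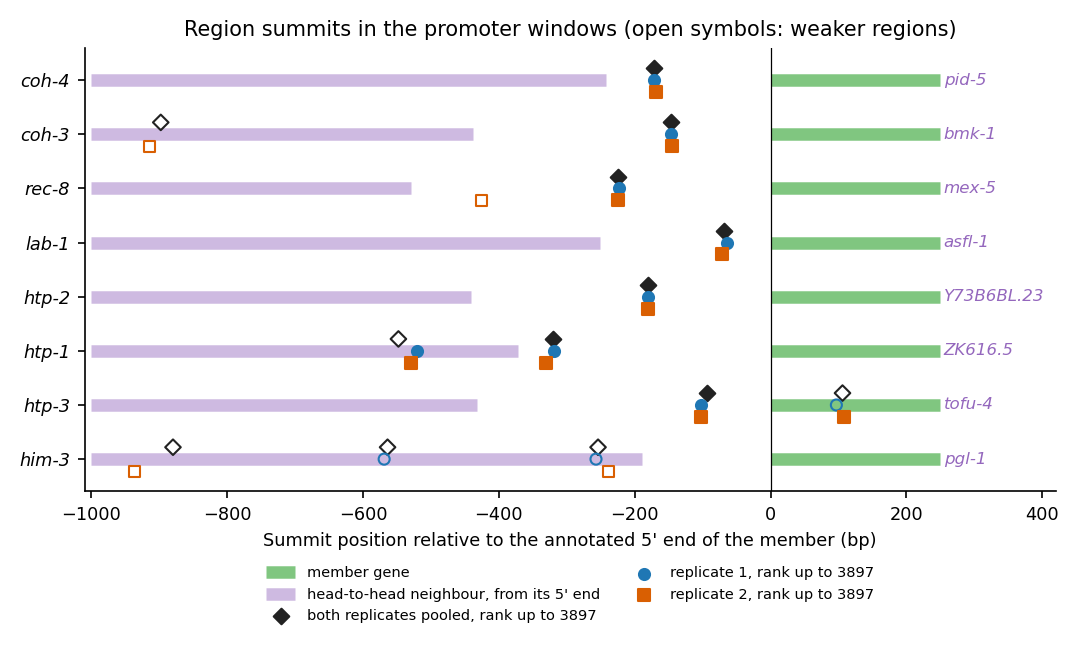
Region summits in the promoter windows of the 8 genes, in bp from the annotated 5' end of each, for the pooled list (diamonds), replicate 1 (circles) and replicate 2 (squares). Filled symbols have ranks up to 3897 and open ones are weaker. Green bars mark the gene and purple bars its head-to-head neighbour, named at the right. The strongest summits of the 7 bound genes lie in the gap between both 5' ends, and those of him-3 lie over pgl-1.

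On their other side 1 of the 8 neighbours was bound, which is near the share of all protein-coding genes, 14.2%. The puf-11 gene, of the Pumilio family of RNA-binding proteins, had a peak of rank 79 that lies 484 bp past the 3' end of htp-2. The 7 others, F57C9.4 beside htp-3, prkl-1 beside him-3, elo-6 beside htp-1, W02A2.12 beside rec-8, F08H9.2 beside coh-3, Y45G5AM.7 beside coh-4 and T05F1.11 beside lab-1, had no IDR summit in their windows.

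The words ACAGTA and ACTGTA and CTACAG, searched on both strands and known from earlier results on these data, are all parts of the 8-base word CTACAGTA on one strand or the other. None of the 4 words lay within 50 bp of the summit of any of the 7 bound genes. Among all 3897 IDR summits, windows of the same length held ACAGTA in 24.9%, ACTGTA in 24.2%, CTACAG in 17.4% and CTACAGTA in 15.9%. At least 1 of the 3 words of 6 bases was in 27.3%. The 101 bases upstream of all protein-coding 5' ends held CTACAGTA in 0.466%. Within 100 bp of the summit, only coh-4 had 1 of the words, ACTGTA. Over the whole promoter window of 1201 bases htp-2 held CTACAGTA once, from -341 to -334 bp, and the other 7 genes did not hold it, beside 10.6% of all promoter windows.

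TACGGTA differs from TACAGTA, the last 7 bases of CTACAGTA, by A4G, with positions counted from 1 at the 5' end. It lay within 50 bp of the summit in 5 of the 7 bound genes, rec-8, coh-3, coh-4, htp-3 and lab-1. It was in 14.2% of the windows of all IDR summits, in 2.36% of those of the lower-ranked pooled regions, and in 1.14% of the windows upstream of all 5' ends. GGCGCA lay in the windows of the 3 kleisin genes alone among the 7, and in 18.2%, 3.31% and 1.55% of the same 3 sets of windows. At coh-3 and coh-4, which are near copies, it lay in the run of 17 identical bases, so these 2 are not separate occurrences. ACGCGC was in none of the 7 and in 14.2% of all IDR windows. At htp-1 and htp-2 none of the 7 words was within 50 bp of the summit. TACGGTA was picked from the windows of 3 of these genes, and GGCGCA after values and sequences of these data were seen. The counts of both words among the 7 are therefore a description only.

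Genes whose strongest peak was most like that of each bound gene were taken by the smallest summed difference in rank over the pooled, replicate 1 and replicate 2 lists. For coh-4 this was plin-1, with ranks of 44, 40 and 57. For coh-3 it was ekl-7 (61, 63 and 60), for rec-8 nasp-2 (134, 129 and 168) and for lab-1 svh-1 (531, 539 and 584). For htp-2 it was gldi-5 (664, 670 and 649), for htp-1 T28A8.3 (831, 837 and 806) and for htp-3 ceh-43 (2629, 2663 and 2819). The summed differences ran from 5 for htp-2 to 106 for htp-3.

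Genes that act with the axis were grouped in 6 lists, and from 66.7% to 83.3% of each was bound. Over these lists together 41 of 55 genes were bound (74.5%), beside 14.2% of all protein-coding genes, and 7 of 8 axis and kleisin genes (87.5%). Many list genes also stand head to head, as 17.7% of all protein-coding genes do, and of genes in this arrangement 37.0% were bound. In the cohesin list all but him-1 and mau-2 stand so, and in the pairing list only zyg-12 and chk-2. The share of the lists is thus to be read beside 37.0% as well as beside 14.2%. The lists were chosen with earlier results of these data known and were not tested, so these shares are a description only. In the list of cohesin and its regulators 6 of 8 were bound (75.0%). The SMC subunit gene smc-3 had rank 130 and the cohesin release factor gene wapl-1 had rank 156 in a peak shared with htz-1. The PDS5 gene evl-14 had rank 329 in a peak shared with dcn-1, and the mitotic kleisin gene scc-1 had rank 351 in a peak shared with rpn-5. The SMC subunit gene him-1 and the loader gene scc-2 were unbound.

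The synaptonemal complex joins the axes of homologs, and 5 of 6 genes of its central region were bound (83.3%). Ranks were 38 for syp-5, 69 for syp-2, whose peak is shared with C24G6.8 and cox-16, 215 for syp-6, shared with mei-2, and 319 for syp-4, shared with H27M09.5. The syp-1 gene had no IDR summit and no pooled region in its window. Of the genes that remodel the axis or release cohesion 10 of 13 were bound (76.9%), led by the shugoshin gene sgo-1 at rank 116. The securin gene ify-1 followed at 203 in a peak shared with rpl-22, then csc-1 of the chromosomal passenger complex at 315 in a peak shared with fbxc-23, and the PP1 gene gsp-2 at 518. The other PP1 gene gsp-1, cmt-1 and the haspin kinase gene hasp-1 were unbound.

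Pairing and chromosome movement had 6 of 8 genes bound (75.0%). The kinase genes chk-2 and plk-2 had ranks of 245, in a peak shared with Y60A3A.19, and 524. The nuclear envelope gene sun-1 had 474 and the pairing centre gene zim-1 had 600, whereas zim-2 and him-8, of the same zinc finger family as zim-1, were unbound. Of the genes for double-strand breaks 8 of 11 were bound (72.7%), with dsb-2 at rank 36, xnd-1 at 213 in a peak shared with madf-11, spo-11, which encodes the enzyme that makes the breaks, at 237 and rec-1 at 333 in a peak shared with pif-1. The unbound ones were dsb-3, him-5 and rad-50. Of the crossover genes 6 of 9 were bound (66.7%), with cosa-1 at 53 in a peak shared with Y71H2AM.11, zhp-3 at 106, msh-5 at 125 in a peak shared with crld-1, and zhp-1 at 695. The unbound ones were him-14, zhp-4 and him-6.

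**Figure D4:**
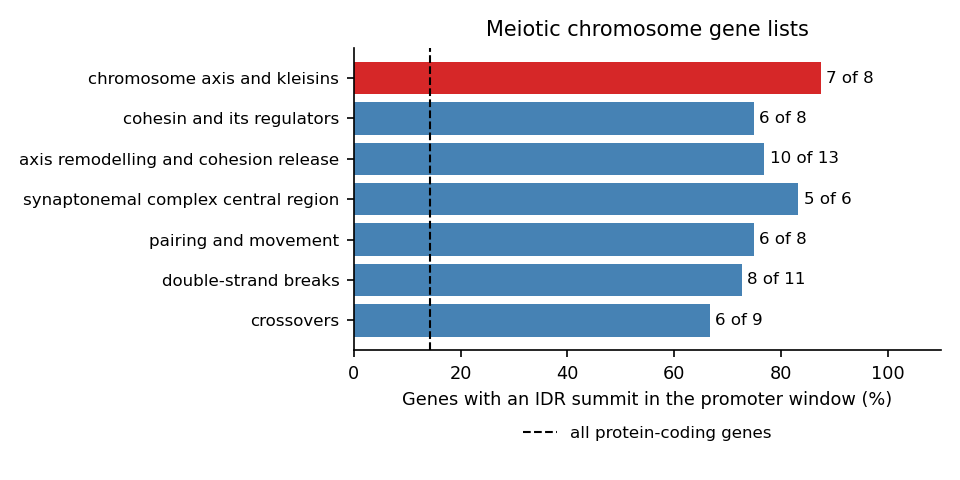
Share of genes, in percent, with an IDR summit in the promoter window, for the 8 axis and kleisin genes (red) and 6 lists of genes that act with them (blue), with the counts beside the bars. The dashed line is the share of all protein-coding genes, 14.2%. The bars end between 66.7% and 87.5%. The 8 genes and the lists were chosen with earlier results of these data known and were not tested.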

How the data were processed

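The labels describe 2 biological replicates of 1 group. Regions came from the authors, who called them for replicate 1, for replicate 2 and for the pooled reads with a control library on ce11, per the notes in the deposit. No source names the caller, the aligner, the depth or the IDR threshold, so no interval or floor could be given. The deposited score of each region gave ranks and nothing else. No test used the −log10 q-values in the deposited lists. The IDR set of 3897 peaks equals the top of the pooled list and leaves 26103 regions below. Of the IDR peaks, 73 repeat the interval of another peak with another summit.

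Summits are the start plus the deposited offset. Genes came from Ensembl release 115 and sequence from RefSeq, both WBcel235. Each of the 8 coding sequences read from the genome starts with ATG and has whole codons. Coding sequences were aligned with Biopython 1.88 (match 1, gap opening 5, extension 0.5). Other steps used Python 3.11.15, numpy 2.4.6, pandas 2.3.3 and matplotlib 3.10.9. On simulated data with 200 planted peaks, all 109 inside a window were recovered and none of 91 outside was called.

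The 8 genes, the 6 lists and the words were chosen with earlier results of these data known. Named are the 8 genes, genes that share their peaks, their neighbours, the gene most like each in rank, and in each list the unbound and up to 4 bound genes of best rank. No test between groups was possible, and the lists were not tested. The alternatives varied the peak set, the replicate, the summit, the window, the transcript, the assignment to genes, the matching distance and the word length.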

Additional observations from a re-analysis of the deposited data

How the results depend on the processing

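Over 10 other settings the number of bound axis and kleisin genes was 5 to 8 and that of the 55 genes in the lists 33 to 52, both within 1.5 times the values reported. The limit of 1.5 times could be passed only downward, since there are 8 and 55 genes in all. The 5 and the 33 came from giving each peak to the closest gene alone, which called 10.2% of all protein-coding genes. The 8 and the 52 came from counting any pooled region, which called 36.7% of them. With either replicate alone 7 of the 8 genes were bound, and 41 genes of the lists with replicate 1 and 42 with replicate 2. Of all protein-coding genes 14.2% were bound with replicate 1 and 13.6% with replicate 2. Of the single lists 58 values stayed within 1.5 times and 2 did not: the synaptonemal complex list fell to 3 with a window of 500 bp upstream to 100 bp downstream, and the crossover list to 3 with the closest gene alone. The number of bound genes with 1 of the 3 words near the summit was 0, and 1 within 100 bp. With words added after the data were seen it was 3 for GGCGCA and 5 for TACGGTA. Peaks with repeated words numbered 0 with words of 50 bases and 5 with words of 25 bases, since shorter words recur more. No paired analysis was possible because there is 1 group. The depth is unknown, so the weaker regions at him-3 do not show that LSL-1 is absent there.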

Other observations

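Outside the promoter windows of the axis and kleisin genes, 4 IDR peaks lay at or within 1000 bp of their 3' ends. The share of all genes with such a peak was not counted, so the 4 are a description only. The strongest was the peak past htp-2, which lies in the promoter window of puf-11. It had ranks of 79 in the pooled list, 79 in replicate 1 and 86 in replicate 2. At coh-4 a peak at V:4169647-4170082 had its summit 47 bp past the 3' end, in an exon of Y45G5AM.7 outside its coding sequence, with ranks of 2088, 2152 and 2100 in the same order. At htp-1 a peak at IV:5389981-5390416 had its summit 10 bp before the 3' end, in an exon of htp-1 outside the coding sequence, with ranks of 2688, 2523 and 3353. At rec-8 a peak at IV:13348021-13348456 had its summit 883 bp past the 3' end, in an intron of W02A2.9, with ranks of 2808, 2718 and 3088. The coh-4, htp-1 and rec-8 peaks were each weaker than the promoter peak of the same gene in every list. At coh-3, lab-1, htp-3 and him-3 no such IDR peak was found.

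The gene body of htp-3 held 3 pooled regions in coding exons, with ranks of 5445, 9258 and 20158. Such regions also lay in htp-1 (6753 and 23599), coh-3 (10330 and 13478), rec-8 (15100 and 19770) and coh-4 (17977). The gene bodies of lab-1, htp-2 and him-3 held none in coding exons. In the htp-3 body the region of rank 5445, centred 1035 bp past the 5' end, had ranks of 6293 in replicate 1 and 6434 in replicate 2.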
